A study of Anopheles gambiae with 18 samples.

Results

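The cardia is the short bulb-shaped compartment at the front of the mosquito midgut, and the transcripts described here encode proteins whose peptides were found in an extract of cardia dissected from female Anopheles gambiae. The extract had been prepared in a way that favours short peptides. Of 94 proteins listed for it, 18 were set aside because their names place them among ribosomal proteins, P450s, lysozymes, serpins, trypsins, other proteases and peptidases, ATP synthase, vacuolar ATPase, transporters or peritrophins. Of the other 76, 62 had a transcript on the array, and these 62 of 14197 transcripts are the members. The rule that chose them uses no array value, but it was set with earlier results of these data known. The 14 without a row were not analysed here, and they include histone H2B (EN000003), one of the H1 histones (EN015704), SEC61 beta (EN014901) and the alpha subunit of the nascent polypeptide-associated complex (EN020323).

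The midguts came from the Keele strain, from mosquitoes maintained on sucrose and 4 days old, with females that had not taken blood. The first anterior array carries no age in its labels. In all, 6 comparisons were made with 3 two-color arrays each, described in the methods as biological replicas. Male midgut was set against female midgut. The cardia, the anterior midgut, the anterior part of the posterior midgut (anterior-posterior) and its rear part (posterior-posterior) were each set against whole female midgut, which contains the compartment it is compared with. Cardia was also set directly against posterior midgut. The first-named sample carried Cy5 and the other Cy3 on all 18 arrays, so a dye effect of a probe and a difference between samples cannot be told apart. Each value is RNA of a dissected piece of tissue, in which fewer cells of a type and less RNA per cell cannot be told apart.

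The cardia secretes onto food as it enters the midgut, and in several insects it makes peritrophic material and antimicrobial peptides. Such peptides are short, carry a signal peptide that sends them into the secretory pathway, and kill bacteria mainly by disturbing their membranes. A peptide extract also takes up abundant short proteins from inside cells, such as histones, translation factors and subunits of the respiratory chain, so the members were read by role. They comprised 3 antimicrobial peptides, 6 other secreted proteins, 8 cytosolic enzymes, 4 folding and secretion proteins, 5 translation factors, 4 histones and nuclear proteins, 10 mitochondrial proteins, 12 cytoskeletal, muscle and signalling proteins, and 10 proteins with no annotation that assigns a role. A signal peptide was listed for 11 members and listed as absent for 27, and for 24 no entry was given.

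Values are log2 ratios averaged over the features of a transcript and centred on each array, as a mean ± SD over 3 arrays unless stated, so 1 is a 2-fold difference. A transcript was called when its mean changed at least 2-fold with an adjusted p under 0.05 in limma, fitted on all transcripts and 18 arrays. All 62 members had at least 2 values in every comparison. Between 12273 and 15494 of 15495 features had a value on an array, and the cardia versus whole midgut arrays stood apart in spread. Their median SD over members was 0.77, against 0.26 for cardia versus posterior, and the correlation between 2 of these 3 arrays across members lay between -0.09 and 0.10, against 0.58 to 0.74 for cardia versus posterior (across transcripts, which are not independent replicates). On the second cardia versus whole array 56.0% of features had a ratio equal to a fraction with a denominator of at most 10, within 0.00051, as arises when both signals are only a few units, and 68.1% had one on the third cardia versus posterior array. The shares among member features on these 2 arrays were 45.9% and 32.8%.

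In all, 15 of the 62 members were called in at least 1 comparison, and 12 of their 17 calls fell in the anterior-posterior part. That part also had the largest shares of all transcripts called, at 1.21% higher and 24.0% lower. The share of all transcripts called in at least 1 comparison is not given here. In cardia versus posterior midgut, 1 member was called higher, where 0.225% of all transcripts were, and none lower (0.0493%). At an unadjusted p under 0.05 with a 2-fold change, limma found 8 members higher (1.24% of all transcripts) and 1 lower (3.85%), and the methods' t-test found 8 higher (1.01%) and none lower (1.26%). In male versus female midgut, 1 member was called higher (0.204% of all transcripts) and 1 lower (7.17%). In cardia versus whole midgut, 1 was called lower (0.966%) and none higher (0.440%). Here 2 were higher (3.66%) and 1 lower (9.09%) at an unadjusted p, and none higher (0.432%) or lower (1.00%) by the methods' t-test. In anterior versus whole midgut, 1 was called lower (5.85%) and none higher (0.232%). There 2 were higher (0.634%) and 7 lower (31.3%) at an unadjusted p, and none higher (0.0423%) and 4 lower (17.6%) by the methods' t-test. In the anterior-posterior part, 4 were called higher (1.21%) and 8 lower (24.0%). In the posterior-posterior part none was called in either direction, as was true of all transcripts (0.00%). At an unadjusted p under 0.05 with a 2-fold change, limma gave 5 members higher (0.726%) and the methods' t-test 3 (0.514%). With arrays centred on all transcripts the calls were 4 higher and 0 lower in male versus female midgut, 11 and 0 in the anterior midgut, 17 and 0 in the anterior-posterior part, and 2 and 0 in the posterior-posterior part. The shares of all transcripts called with that centring are not given here.

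Read by size alone, 28 members had a mean of at least 2-fold in some comparison and 34 in none. The matching share of all transcripts is not given here. In the anterior-posterior part alone 41.2% of them were at least 2-fold lower. In male versus female midgut 3 were at least 2-fold higher (0.549% of all transcripts) and 4 lower (30.6%), and 15 were above 0 on all 3 arrays (5.26%) against 22 below (69.2%). In cardia versus whole midgut 3 were 2-fold higher (4.59%) and 1 lower (11.2%), 33 had a mean above 0 (39.8%), and 5 were above 0 on all 3 arrays (6.28%) and 7 below (11.5%). At an unadjusted p under 0.05 these were 2 higher (3.66%) and 1 lower (9.09%). In the anterior midgut 2 were 2-fold higher (0.648%) and 7 lower (36.9%), with 21 above 0 on all 3 arrays (6.40%) and 14 below (68.4%). In the anterior-posterior part 5 were 2-fold higher (1.42%) and 10 lower (41.2%), the same numbers as with an unadjusted p under 0.05 (1.39% and 36.6%), and 18 were above 0 on all 3 arrays (5.67%) and 16 below (50.7%). In the posterior-posterior part 5 were 2-fold higher (0.747%, or 0.726% with an unadjusted p under 0.05) and none lower (14.6%), 34 had a mean above 0 (16.1%), and 16 were above 0 on all 3 arrays (5.09%) and 17 below (42.9%). In cardia versus posterior midgut 8 were 2-fold higher (1.30%) and 1 lower (4.97%), with 18 above 0 on all 3 arrays (9.68%) and 12 below (35.1%).

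Across the members the middle of each comparison lay near the centre of the arrays. The median of member means was -0.17 for male versus female, 0.07 for cardia, 0.10 for anterior, -0.07 for anterior-posterior and 0.10 for posterior-posterior against whole midgut, and 0.04 for cardia versus posterior. The medians over all transcripts were lower, at -0.70, -0.17, -0.85, -0.86, -0.51 and -0.23 in the same order, because the centre is the median of a list of transcripts that the study scored as expressed in the male or female midgut. Centred on all transcripts instead, values would be higher by 0.68, 0.10, 0.79, 0.88, 0.48 and 0.21 on average, so directions below are relative to the list, and the rank of a member among all transcripts is given where it is independent of the centre. Of the 54 medians by role and comparison, 15 kept 1 sign under both centrings and without centring.

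**Figure D1:**
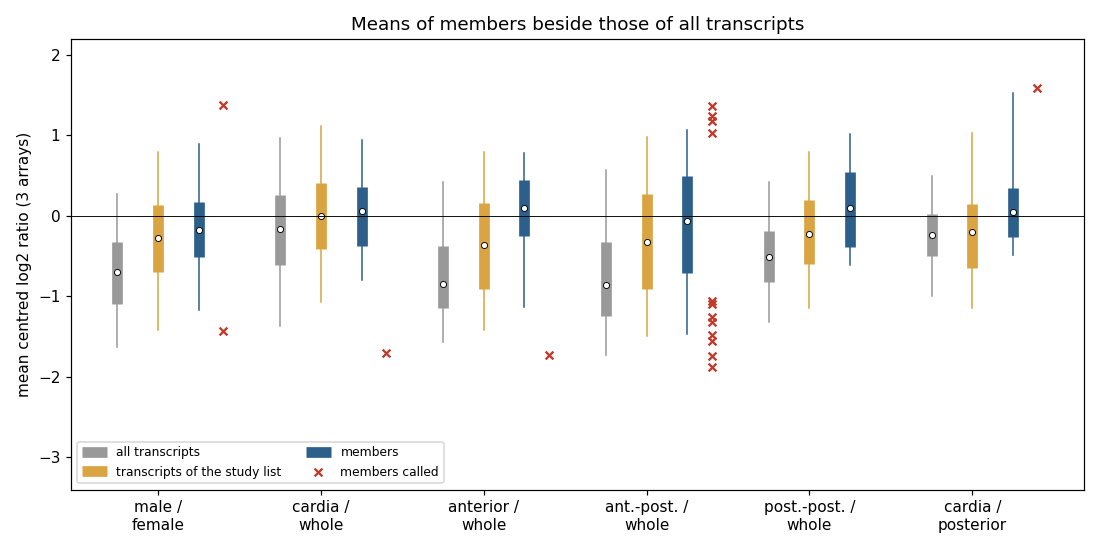
Mean centred log2 ratio over the arrays of each comparison, for all transcripts (grey), transcripts of the study's expression list (gold) and the 62 members (blue). Thick bars span the 25th to 75th percentile, thin lines the 5th to 95th percentile, white points are medians and red crosses are the members called. The members' median lies above that of all transcripts in every comparison, and 12 of the 17 crosses are in the anterior-posterior part. That part also had the most calls among all transcripts.

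The 3 antimicrobial peptides had their largest mean ratios of the 6 comparisons in the direct comparison of cardia with posterior midgut. Cecropin CEC3/CECB (EN011995), a cecropin being a linear peptide that opens bacterial membranes, stood at 1.09, 2.01 and 1.96 on the 3 arrays. Cecropin CEC2/CECC (EN011963) stood at 1.23, 1.55 and 1.80. Defensin 1 (EN015621), a peptide held together by disulfide bridges that acts mainly on Gram-positive bacteria, stood at 0.98, 1.25 and 1.46. All 9 values were thus above 0, and 8 of them were above 2-fold. The means were 1.69 ± 0.52, 1.53 ± 0.29 and 1.23 ± 0.24, that is 3.22-fold, 2.88-fold and 2.35-fold, and they ranked within the top 0.254%, 0.352% and 0.803% of 14191 transcripts. None of the 3 was called, with adjusted p in limma of 0.297, 0.310 and 0.361. With weights on the arrays all 3 were, at adjusted p of 0.00309, 0.00353 and 0.00772, in a fit that called 1.23% of all transcripts higher.

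Gambicin (EN013255), an antimicrobial peptide of mosquitoes whose protein was not in the extract's list, was set beside them. It stood at 1.48, 1.37 and 1.52 in cardia versus posterior midgut, a mean of 1.46 ± 0.08 (2.75-fold, limma adjusted p = 0.0952). Its mean lies between those of defensin 1 and cecropin CEC2/CECC, and its 3 values span less than those of any of the 3 members. Cecropins form a family of similar sequence, and whether the probes tell the 2 cecropins apart was not tested. Defensin 1 had 2 features, which differed from each other by a median of 0.80 over 17 arrays.

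The same peptides against whole midgut gave a far less even picture. In cardia versus whole midgut CEC2/CECC stood at 3.45, -0.27 and 0.67, CEC3/CECB at 1.20, -0.27 and 2.21, and defensin 1 at 1.25, -1.39 and 1.20. The second array was below 0 for all 3 peptides and the other 2 arrays above 0. The means of 1.28 ± 1.94, 1.05 ± 1.25 and 0.36 ± 1.51 did not differ from 0 in limma (adjusted p = 0.179, 0.328 and 0.717). Without centring the median of the 3 means turned to -0.39.

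In the remaining compartments the antimicrobial peptides lay closer to whole midgut. CEC2/CECC went from 0.16 ± 0.58 in the anterior midgut to -0.69 ± 0.60 in the anterior-posterior and -0.59 ± 0.59 in the posterior-posterior part. CEC3/CECB measured 0.63 ± 0.80, -0.41 ± 1.91 and 0.62 ± 0.19 in the same order, the middle value resting on arrays at 1.04, 0.31 and -2.58. Defensin 1 measured -0.24 ± 0.29, 0.25 ± 0.22 and -0.25 ± 0.80. The test of the difference between any pair of these 3 parts passed for none of the peptides, with differences from -1.03 to 1.03 and SEs from 0.59 to 0.75. The cardia ratio minus the mean ratio of the 2 posterior parts was 1.92 for CEC2/CECC (SE 0.60, limma adjusted p = 0.0907), 0.94 for CEC3/CECB (SE 0.65, adjusted p = 0.422) and 0.35 for defensin 1 (SE 0.51, adjusted p = 0.724).

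All 3 antimicrobial peptides were also above 0 on every array of male against female midgut, as were 5.26% of all transcripts. Defensin 1 stood at 0.60, 1.14 and 1.34 (2.03-fold), CEC3/CECB at 0.64, 1.40 and 0.64 (1.86-fold) and CEC2/CECC at 0.89, 0.15 and 0.47 (1.42-fold). Gambicin stood at 1.14, 0.91 and 0.50 (1.81-fold). None of these was called by limma, with adjusted p of 0.0931, 0.223, 0.445 and 0.0902. In the study's own array values and quantitative RT-PCR for male versus female midgut, gambicin lay slightly below 0. The study's values for CEC3/CECB and defensin 1 in that comparison lay above 0 by both methods. In cardia versus posterior midgut, its values for CEC3/CECB, defensin 1 and gambicin were above 0 by both methods. For CEC3/CECB and defensin 1 in the anterior and anterior-posterior parts against female midgut, both methods gave values below 0. The means given above for CEC3/CECB in the anterior and defensin 1 in the anterior-posterior part were above 0 instead.

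**Figure D2:**
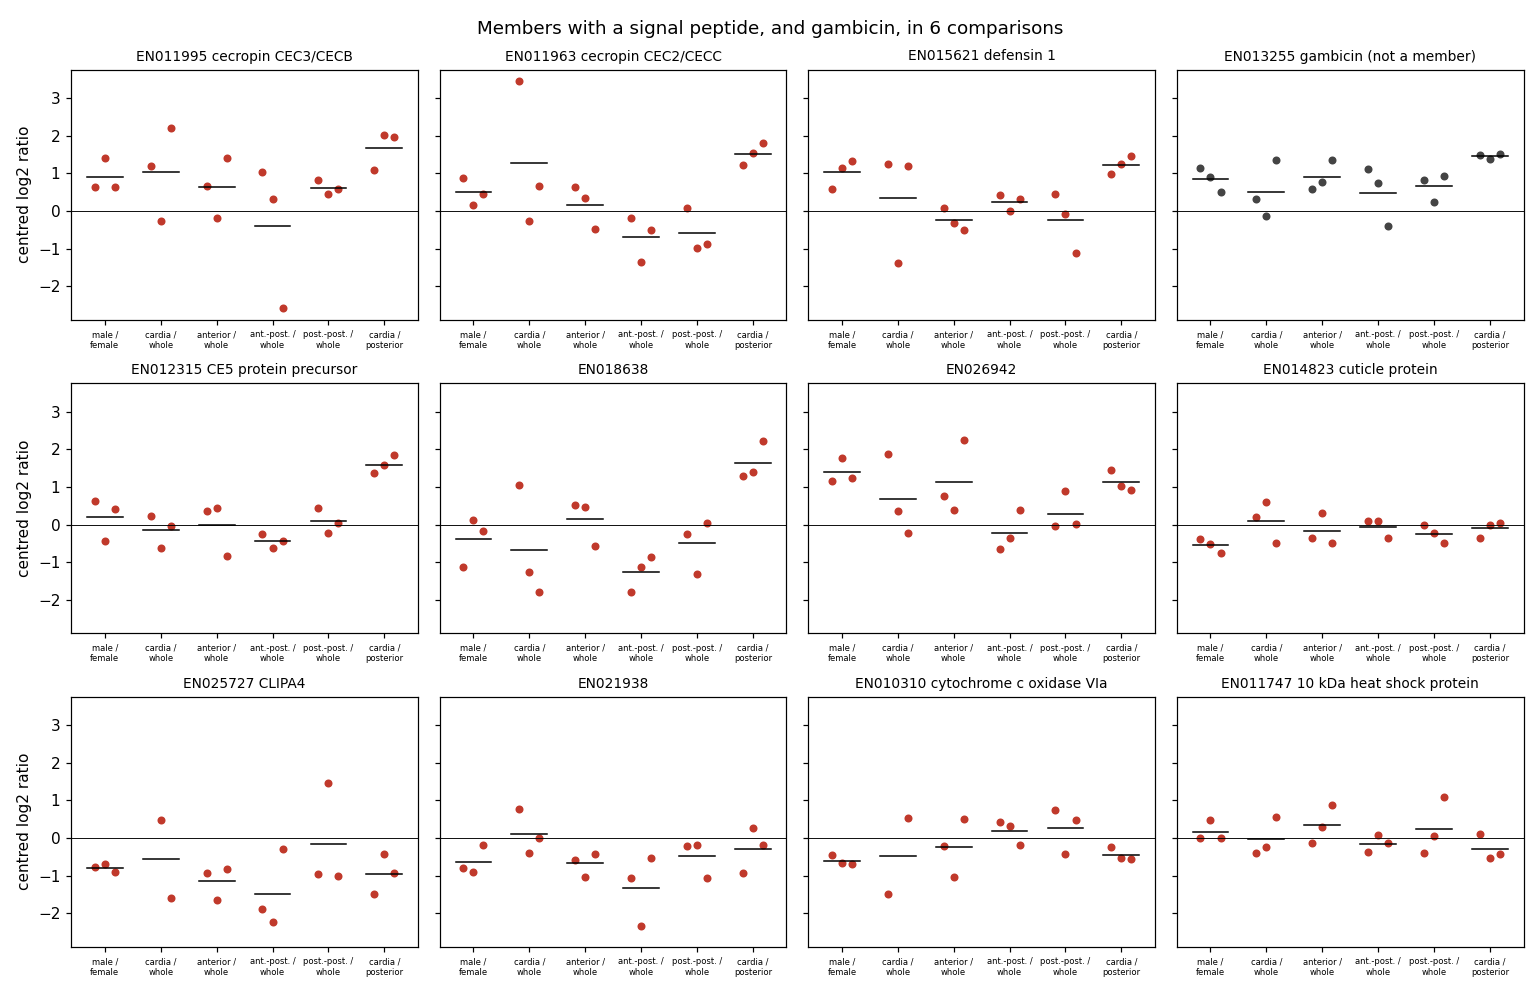
Centred log2 ratio on each array (points, arrays 1 to 3 from left to right) and mean (line) of the 11 members with a signal peptide and of gambicin, which is not a member, in the 6 comparisons. In cardia versus posterior midgut, 6 of the 11 members have all their points between 0.91 and 2.21, while their points in cardia versus whole midgut lie on both sides of 0.

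Among the 6 other secreted proteins, 3 were at least 2-fold higher in cardia than in posterior midgut. CE5 protein precursor (EN012315), a homolog of a salivary thrombin inhibitor, stood at 1.36, 1.58 and 1.84, and it was the member called (1.59 ± 0.24, 3.02-fold, limma adjusted p = 0.0372). EN018638, which has a signal peptide and no known role, stood at 1.30, 1.40 and 2.21 (1.64 ± 0.50, adjusted p = 0.208). EN026942, likewise of unknown role, stood at 1.45, 1.04 and 0.91 (1.13 ± 0.28, adjusted p = 0.396). All 9 values were above 0. The call of CE5 was lost when any of the 3 arrays was left out, with adjusted p from 0.162 to 0.402 while its mean stayed between 1.47 and 1.71.

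Because CE5 is known from salivary glands, 3 transcripts named for salivary gland proteins were read on the same arrays. Their means in cardia versus posterior midgut ran from -0.80 to 1.06 with a median of 0.64. None was called, where 0.225% of all transcripts were called higher and 0.0493% lower. Their part in the CE5 ratio was not tested. Against whole midgut CE5 did not stand out in any compartment, with means of -0.14 ± 0.44 in cardia, -0.01 ± 0.71 in anterior, -0.43 ± 0.18 in anterior-posterior and 0.09 ± 0.34 in posterior-posterior midgut. Its cardia ratio minus the mean ratio of both posterior parts was 0.03 (SE 0.40, limma adjusted p = 0.973). The arrays against whole midgut thus did not show the difference seen in the direct comparison.

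EN018638 was called lower in the anterior-posterior part than in whole midgut, with values of -1.79, -1.12 and -0.87 (-1.26 ± 0.47, limma adjusted p = 0.0478), below 0 on all 3 arrays. It was above 1 on all arrays of cardia versus posterior, where posterior tissue is the reference rather than the sample. Its cardia versus whole values of 1.06, -1.27 and -1.80 spread over both sides of 0. The cardia ratio of EN018638 minus the mean ratio of both posterior parts was 0.21 (SE 0.56, limma adjusted p = 0.853).

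EN026942 was the member called higher in male than in female midgut. Its 3 arrays gave 1.15, 1.76 and 1.25 (1.38 ± 0.33, 2.61-fold, limma adjusted p = 0.0461), a rank within the top 0.113% of 14197 transcripts. It was also the highest member of the anterior midgut, at 0.77, 0.39 and 2.23 (1.13 ± 0.97, adjusted p = 0.0673), where the third array lay far above the others. Without any 1 of the male versus female arrays the call was lost, with adjusted p from 0.0733 to 0.387.

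The other 3 secreted proteins went the other way or stayed near the centre. CLIPA4 (EN025727), of the clip-domain serine protease family that regulates immune cascades in insect blood, stood at -1.89, -2.23 and -0.30 in the anterior-posterior part and was called lower there (-1.47 ± 1.03, limma adjusted p = 0.0375). EN021938, for which a pyrokinin domain was annotated, stood at -1.07, -2.34 and -0.54 there and was called lower too (-1.31 ± 0.93, adjusted p = 0.0242). For both, the third array was the one nearest to 0. A cuticle protein (EN014823) lay between -0.55 and 0.11 as a mean in all 6 comparisons.

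Read by signal peptide, 6 of the 11 members that have one were at least 2-fold higher in cardia than in posterior midgut, with a median over the 11 of 1.13. Of the 27 members listed as lacking one, regucalcin alone was, with a median of 0.06, and of the 24 with no entry, cystathionine gamma-lyase alone was, with a median of 0.00. Of all transcripts, 1.30% had such a mean and the median was -0.23. The other 5 members with a signal peptide had means from -0.94 to -0.10, namely CLIPA4, cytochrome c oxidase VIa, the small mitochondrial co-chaperonin, EN021938 and the cuticle protein, and 2 of these are mitochondrial proteins. All 8 members at or above 2-fold were in the expression list that the study drew up in part from these arrays, in which 5.19% of 3104 transcripts had such a mean. None of the 31 members outside it reached 2-fold in either direction, so the count is not independent of that selection.

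**Figure D3:**
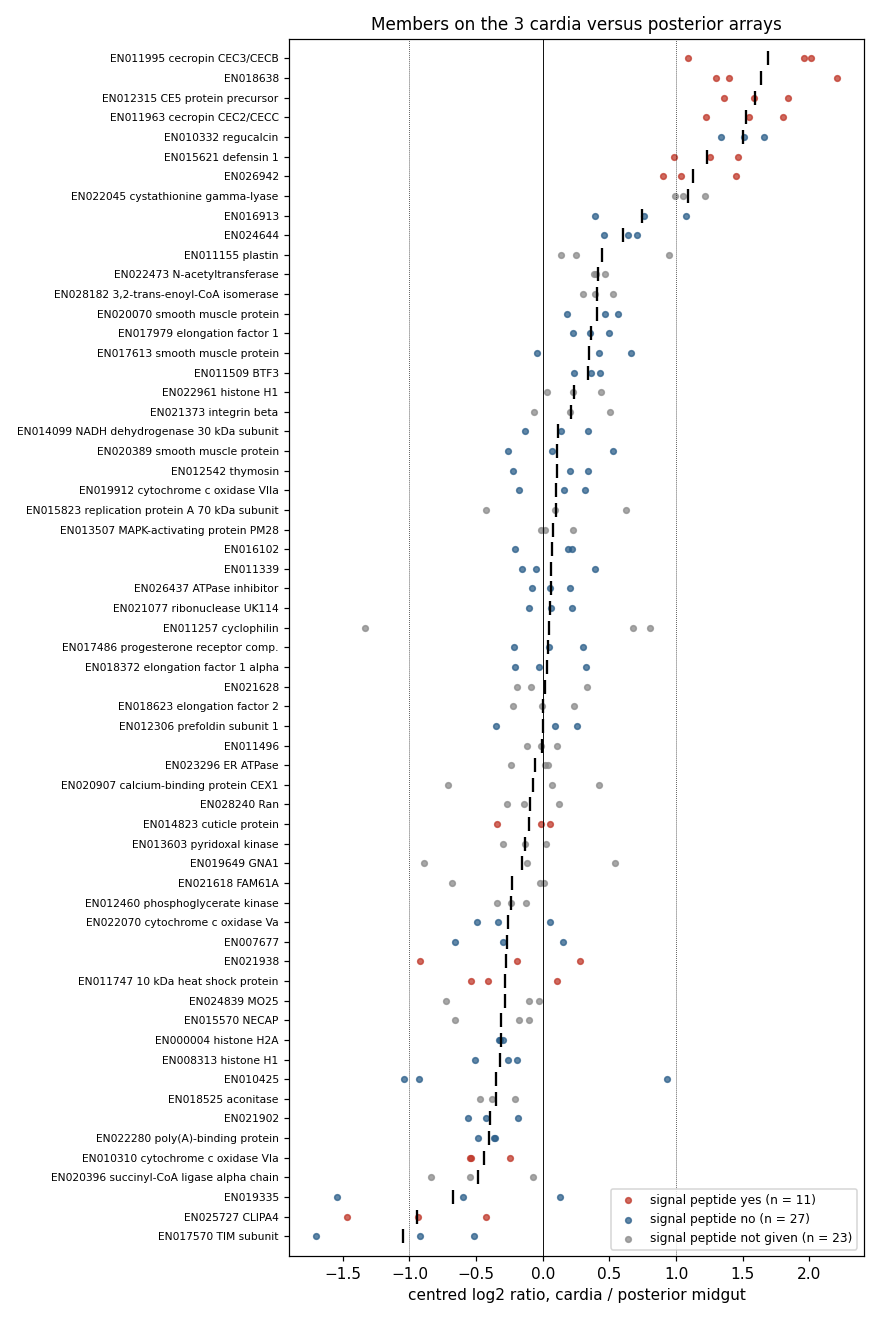
Centred log2 ratio of cardia to posterior midgut for 61 of the 62 members on the 3 arrays (points) with the mean (black tick), in order of the mean and colored by the listed signal peptide. Dotted lines mark a 2-fold difference. The 8 members with means from 1.09 to 1.69 include 6 of the 11 with a signal peptide, and the mitochondrial TIM subunit is lowest at -1.05.

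The 2 intracellular members of the group above 2-fold were both cytosolic enzymes. Regucalcin (EN010332), a calcium-binding protein, stood at 1.34, 1.51 and 1.66 (1.50 ± 0.16, limma adjusted p = 0.208). Cystathionine gamma-lyase (EN022045), which makes cysteine from cystathionine, stood at 1.22, 1.05 and 0.99 (1.09 ± 0.12, adjusted p = 0.117). Their SDs were the smallest of the 8 members. Both were above 0 in all 6 comparisons as means, with cystathionine gamma-lyase from 0.67 to 1.09 and regucalcin from 0.18 to 1.50. In male versus female midgut, for instance, cystathionine gamma-lyase stood at 1.05, 0.76 and 0.63 (adjusted p = 0.0593) and regucalcin at 0.97, 0.97 and 0.47 (adjusted p = 0.165). Whole midgut contains each compartment set against it. A dye effect or the choice of centre cannot be told apart from a difference between samples in the means above 0.

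The other cytosolic enzymes differed most in the anterior-posterior part. N-acetyltransferase (EN022473) stood at 1.16, 0.89 and 1.51 there and was called higher (1.18 ± 0.31, limma adjusted p = 0.0190). Ribonuclease UK114 (EN021077), of a conserved family of small perchloric acid-soluble proteins, stood at -1.33, -1.12 and -0.71 and was called lower (-1.05 ± 0.32, adjusted p = 0.0217). Their means differ in sign by the calls that picked them, and the difference between them was not tested. Phosphoglycerate kinase (EN012460), a glycolytic enzyme, and glucosamine 6-phosphate N-acetyltransferase (EN019649), which serves the synthesis of chitin precursors, had means between -0.31 and 0.30 in all comparisons.

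Translation factors had their highest medians in the posterior parts, at 0.82 in the anterior-posterior and 0.94 in the posterior-posterior part over 5 members, and 0.03 in cardia versus posterior midgut. Elongation factor 1 alpha (EN018372), which brings aminoacyl-tRNA to the ribosome, stood at 1.26, 1.15 and 0.67 in the anterior-posterior part and was called higher (1.03 ± 0.32, limma adjusted p = 0.0348). Elongation factor 2 (EN018623), which moves the ribosome along the mRNA, stood at 1.28, 1.04 and 0.58 (0.97 ± 0.36, adjusted p = 0.0364), just under 2-fold. BTF3 (EN011509), the beta subunit of the nascent polypeptide-associated complex, was at its highest in the posterior-posterior part, at 1.12, 1.72 and 1.06 (1.30 ± 0.37, adjusted p = 0.149). Poly(A)-binding protein (EN022280) was between -0.40 and -0.04 as a mean in all comparisons. Among 15 other translation elongation and initiation factors of the expression list, none was called in any comparison and the medians in the 2 posterior parts were 0.58 and 0.35. Without centring the translation factor median of the anterior-posterior part turned to -0.16.

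The 2 linker histones on the array, which bind DNA between nucleosomes, had means of opposite sign in the anterior-posterior part. Histone H1 EN022961 stood at 1.47, 1.21 and 1.43 in the anterior-posterior part and had the highest called mean there (1.37 ± 0.14, 2.58-fold, limma adjusted p = 0.0177). Histone H1 EN008313 stood at -1.96, -0.27 and -0.47 on the same arrays (-0.90 ± 0.92, adjusted p = 0.0549). The values of these transcripts do not overlap, and the difference between them was not tested. EN022961 was also high in the posterior-posterior part, at 1.22, 0.86 and 1.67 (1.25 ± 0.41, adjusted p = 0.156), and at 0.23 ± 0.20 in cardia versus posterior midgut. Histone H2A (EN000004), of the nucleosome core, measured 0.29 in the anterior-posterior and 0.64 in the posterior-posterior part. The large subunit of replication protein A (EN015823), which coats single-stranded DNA, stood at -2.53, -1.12 and 0.09 in the anterior-posterior part (-1.19 ± 1.31, adjusted p = 0.0521).

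Among the 4 folding and secretion proteins none was called. The transitional endoplasmic reticulum ATPase (EN023296), which pulls proteins out of membranes and complexes, stood at 0.96, 0.95 and 1.30 in the anterior-posterior part (1.07 ± 0.20, limma adjusted p = 0.0658). Cyclophilin (EN011257), a prolyl isomerase, showed the widest spread of any member in cardia versus posterior midgut, with 0.68, -1.34 and 0.80, and its ratio was one of few units on all 3 arrays. The clathrin adaptor NECAP (EN015570) and prefoldin subunit 1 (EN012306), a chaperone for actin and tubulin, had means between -0.83 and 0.66.

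The 10 mitochondrial proteins had the lowest median of the 9 roles in cardia versus posterior midgut, at -0.27, against -0.23 over all transcripts. The lowest single member was a mitochondrial import inner membrane translocase (TIM) subunit (EN017570), at -1.71, -0.52 and -0.92 (-1.05 ± 0.60, limma adjusted p = 0.425). The same transcript was called lower in the anterior-posterior part, at -1.86, -1.53 and 0.10 (-1.10 ± 1.05, adjusted p = 0.0445), where the third array lay above 0. Of the subunits of cytochrome c oxidase, the last enzyme of the respiratory chain, subunit VIIa (EN019912) stood at 0.95, 0.95 and 1.85 in the same part and was called higher (1.25 ± 0.52, adjusted p = 0.0229), subunit Va (EN022070) at 1.20, 1.10 and 0.55 (0.95 ± 0.35, adjusted p = 0.0546), and subunit VIa (EN010310) had a mean of 0.18. The differences between subunits were not tested. Of 15 subunits of complex I on the expression list, 1 was called lower and none higher in the anterior-posterior part, with a median of 0.32. Aconitase (EN018525) and the alpha chain of succinyl-CoA ligase (EN020396), both of the citrate cycle, had means of -0.35 and -0.48 in cardia versus posterior midgut and were below 0 on all 3 arrays.

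The 12 cytoskeletal, muscle and signalling proteins included 1 call. Plastin (EN011155), which bundles actin filaments, stood at -1.70, -2.70 and -0.84 in the anterior-posterior part (-1.75 ± 0.93, limma adjusted p = 0.0177), and at 0.95, 0.14 and 0.25 in cardia versus posterior midgut. Thymosin (EN012542), which holds actin monomers, lay below 0 in all 4 compartments as a mean, from -0.92 in the anterior to -0.57 in the cardia, the last over 2 arrays. The 3 transcripts annotated as smooth muscle protein had means in cardia versus posterior midgut of 0.11, 0.35 and 0.40. In the anterior-posterior part they measured 0.88 for EN020070, -0.04 for EN017613 and -0.48 for EN020389. Calcium-binding protein CEX1 (EN020907) was the third lowest member in male versus female midgut, at -0.94, -0.98 and -2.04 (-1.32 ± 0.62, adjusted p = 0.0924).

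Among the 10 unannotated members, EN019335 had the most calls of any member, with 3. It stood at -0.66, -1.22 and -2.42 in male versus female midgut (-1.43 ± 0.90, limma adjusted p = 0.0480). It stood at -1.09, -1.03 and -3.08 in the anterior midgut (-1.73 ± 1.17, adjusted p = 0.0445), and at -1.69, -1.70 and -1.27 in the anterior-posterior part (-1.55 ± 0.24, adjusted p = 0.0230). Its cardia versus whole values of 0.74, 0.67 and 0.57 were above 0 on every array, while cardia versus posterior gave -1.54, -0.60 and 0.13. The ratios of this transcript matched a fraction of few units on 6 of the 18 arrays. Its anterior call was lost without any 1 of the 3 arrays (limma adjusted p from 0.116 to 0.142), and its male versus female call without the second or the third (up to 0.387).

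EN010425 stood at -1.65, -3.62 and -0.36 in the anterior-posterior part, the lowest mean of any member in any comparison (-1.87 ± 1.64, limma adjusted p = 0.0343). EN011339 was the member called in cardia versus whole midgut, at -0.78, -1.40 and -2.93 (-1.70 ± 1.11, adjusted p = 0.0472), and in cardia versus posterior midgut it measured 0.06 ± 0.29. Its call was lost without the third array (limma adjusted p = 0.147). EN024644 had the highest mean of the posterior-posterior part, at 3.19, 0.47 and 1.01 (1.56 ± 1.44, adjusted p = 0.174), with the first array far above the others. EN007677 was low in male versus female midgut and in the anterior midgut, with means of -1.19 and -1.23, and 8 of its 18 arrays held a ratio of few units. It has 2 features, and an array was counted when either had such a ratio. Its count is thus not comparable with that of a transcript with 1 feature.

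**Figure D4:**
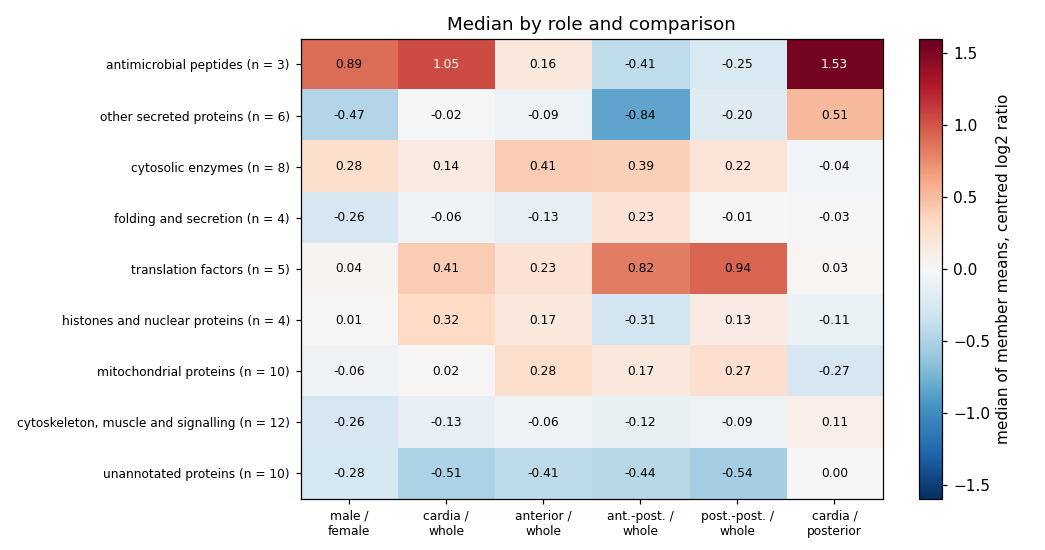
Median over members of the mean centred log2 ratio, for each of the 9 roles (rows, with the number of members) and 6 comparisons (columns). The antimicrobial peptides reach 1.53 in cardia versus posterior midgut and the translation factors 0.94 in the posterior-posterior part, and the other secreted proteins are lowest at -0.84 in the anterior-posterior part, a median that is 0.04 with arrays centred on all transcripts.

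The 12 calls of the anterior-posterior part rested on the first and second arrays, as none remained without either of them. All 8 members called lower had their value nearest to 0 or above it on the third array. Without that array 20 members were called, 7 higher and 13 lower, a fit whose share over all transcripts is not given here. Cytochrome c oxidase VIIa was not among these 20 (limma adjusted p = 0.0553). The median over all transcripts on the 3 arrays was -1.31, -1.12 and -0.21 after centring, and on the second array 63.2% of all features and 33.3% of member features held a ratio of few units. The part of these differences between arrays in the calls was not tested. All 12 members kept their sign under both centrings and without centring, but with arrays centred on all transcripts no member was called lower.

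**Figure D5:**
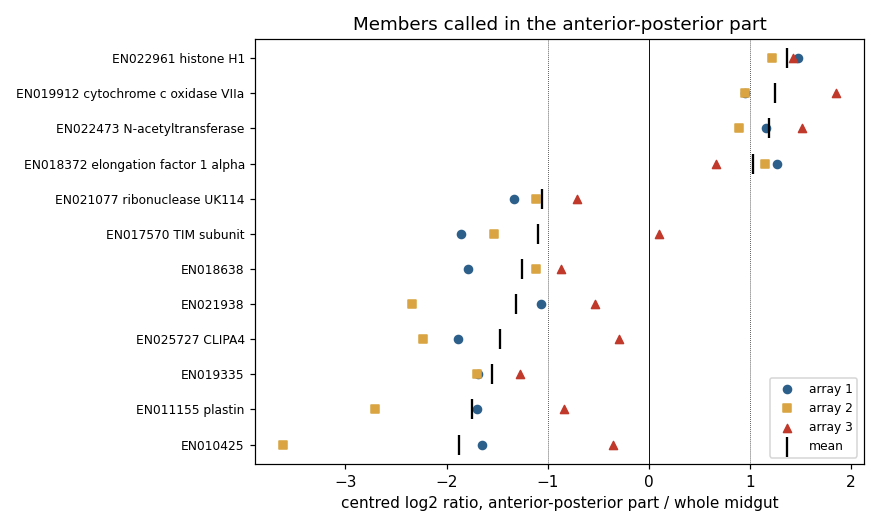
Centred log2 ratio on each array (circle, square and triangle for arrays 1, 2 and 3) and mean (black tick) of the 12 members called in the anterior-posterior part against whole midgut. Dotted lines mark a 2-fold difference. The triangles of the 8 lower members are the points nearest to 0 or above it, and the 4 higher members lie above 0 on every array.

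The tested differences between ratios against whole midgut separated no member. Cardia against anterior midgut, or against a single posterior part, was not tested in this way. Limma called none of the 62 for anterior minus anterior-posterior, anterior minus posterior-posterior, anterior-posterior minus posterior-posterior or cardia minus the mean of the 2 posterior parts, where of all transcripts 1.74% were called higher and 0.108% lower in the last and none in the others. At an unadjusted p under 0.05 there were 3, 1, 3 and 12 members, where 2.61%, 2.08%, 3.86% and 20.9% of all transcripts were. Each of these counts is near the background. The members of the first contrast were EN018638 at 1.39 (SE 0.64), EN026942 at 1.34 (SE 0.57) and ribonuclease UK114 at 1.03 (SE 0.40), all higher in the anterior midgut. The largest cardia differences were those of CEC2/CECC at 1.92 and EN019335 at 1.74 (SE 0.52, limma adjusted p = 0.0826), and the lowest were those of EN024644 at -1.35 (SE 0.58) and succinyl-CoA ligase at -1.19 (SE 0.41).

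Marker lists for other tissues gave no call in cardia versus posterior midgut, where 0.225% of all transcripts were called higher and 0.0493% lower. With shares this small, lists of this size could hardly be expected to hold a call. The median mean was -0.38 for 22 muscle transcripts (range -2.10 to 1.06), -0.33 for 15 cuticle transcripts (-0.74 to 1.61), -0.36 for 19 trypsins and carboxypeptidases (-0.97 to 0.26) and -0.26 for 3 prophenoloxidases of hemocytes (-0.31 to 1.63), against -0.23 for all transcripts and -0.20 for the expression list. In the anterior-posterior part, where most members were called, the medians were -0.01, -0.80, -0.60 and -1.15 with the muscle list first, then cuticle, digestive enzymes and prophenoloxidases. Of these, 1 muscle transcript was called higher, 2 cuticle transcripts lower, 1 digestive enzyme higher and 5 lower, and 2 prophenoloxidases lower, where 24.0% of all transcripts were called lower. Their part in the members' ratios was not tested.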

How the data were processed

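Each feature of the 18 two-color arrays had 1 deposited value, the log2 of its Cy5 over its Cy3 signal. According to the methods the authors scanned the slides with GenePix Pro, applied LOWESS normalization and a signal threshold, and tested mean ratios with a t-test. The deposited ratios were not normalized and came without intensities, so neither step could be repeated. Ratios at a placeholder of 100000 (120 spots, none of a member) were treated as missing. Features of a transcript were averaged, and each array was centred on the median of 1937 transcripts from the male versus female part of the study's expression list. All arrays entered 1 limma 3.58.1 fit (R 4.3.3) with 1 coefficient per comparison, so the comparisons share 1 spread per transcript (prior df 7.04). Adjusted p is Benjamini-Hochberg over all transcripts with at least 2 arrays. The script was tested on simulated data. Tables and plots used Python 3.11, pandas 2.3.3, NumPy 2.4.6 and matplotlib 3.10.9. Intensity was not available, so the depth behind a ratio is unknown. Named transcripts are all members called, all with a signal peptide, the 3 highest and 3 lowest consistent members of each comparison, at least 1 per role, and gambicin; other members were named after their values were seen. Members and lists were chosen with earlier results of these data known. Lists of other transcripts were taken by words in the homology names of the expression list. Alternatives were other centrings, array weights, a replicate block, fits on 3 arrays or on the expression list, feature medians, a 3-array minimum, the methods' t-test and leaving out each array. One member is counted with the others but not reported by name here.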

Additional observations from a re-analysis of the deposited data

Results flagged for a closer look

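For 4 members every array of cardia versus whole midgut lay on one side of 0 and every array of another compartment on the other. The share of all transcripts with such a pattern is not given here, so the count cannot be read as a trait of the members. Pairs of the 3 cardia versus whole arrays correlated only between -0.09 and 0.10 across members. Pyridoxal kinase (EN013603) had a mean of -0.38 in cardia, 0.33 in the anterior midgut and 0.60 in the anterior-posterior part. EN019335 had 0.66 in cardia, -1.73 in the anterior midgut, -1.55 in the anterior-posterior part and -0.61 in the posterior-posterior part. The smooth muscle protein EN020070 had -0.090 in cardia, 0.55 in the anterior midgut and 0.88 in the anterior-posterior part. Ribonuclease UK114 (EN021077) had 0.35 in cardia, -1.05 in the anterior-posterior part and -0.29 in the posterior-posterior part. These differences between single compartments were not tested. The cardia ratio minus the mean of the 2 posterior parts was tested and passed for none, with -0.58 for pyridoxal kinase (limma adjusted p = 0.357), 1.74 for EN019335 (0.0826), -0.87 for EN020070 (0.199) and 1.03 for UK114 (0.108).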

How the results depend on the processing

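Counts of members called are given as male versus female, cardia, anterior, anterior-posterior and posterior-posterior against whole midgut, and cardia versus posterior midgut. The reported counts were 2, 1, 1, 12, 0 and 1. They were 4, 1, 11, 17, 2 and 1 with arrays centred on all transcripts, 1, 49, 10, 34, 25 and 0 without centring, 2, 0, 0, 6, 0 and 4 with only the expression list tested, 7, 0, 9, 1, 0 and 0 with each comparison fitted on its own 3 arrays, and 7, 0, 5, 19, 9 and 9 with array weights. With weights, 0.838%, 0.00%, 0.261%, 1.15%, 1.01% and 1.23% of all transcripts were called higher. Lower calls made up 26.5%, 0.00%, 36.1%, 42.3%, 8.07% and 3.20%. With the list alone, 0.999%, 1.69%, 1.16%, 3.90%, 0.00% and 3.09% of its transcripts were called higher. Those called lower were 3.90%, 1.17%, 3.87%, 10.2%, 0.00% and 1.22%. Shares are not given for the other centrings, fits on 3 arrays, the replicate block or arrays left out. The methods' t-test gave 4, 0, 4, 7, 3 and 8 unadjusted and 0 in each after Benjamini-Hochberg. Unadjusted, it found 0.373%, 0.432%, 0.0423%, 0.937%, 0.514% and 1.01% of all transcripts higher. It found 9.17%, 1.00%, 17.6%, 5.05%, 2.38% and 1.26% lower. Leaving out 1 array gave 0 to 1, 0 to 2, 0 to 0, 0 to 20, 0 to 0 and 0 to 0, and 0 to 2 for differences between compartments. The replicate block gave 0, 0, 0, 9, 0 and 0. Deviations of arrays of the same number correlated between -0.36 and 0.28 over 45 pairs. For arrays of other numbers the range was -0.35 to 0.39 over 90 pairs. Whether arrays of the same number share a batch cannot be told from these ranges. Of the members called and the 8 at 2-fold in cardia versus posterior midgut, none changed sign under any of these alternatives. The causes of these changes were not tested. With 3 arrays a comparison, no dye swap and no intensities, the precision of low signals is unknown.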
